A study of Mus musculus with 4 samples.

Results

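The 9 genes described here encode the neuronal nicotinic acetylcholine receptor subunits: the alpha subunits Chrna2, Chrna3, Chrna4, Chrna5, Chrna6 and Chrna7 and the beta subunits Chrnb2, Chrnb3 and Chrnb4. They were taken by their symbols from a table of 55487 genes, and each symbol stood under 1 Ensembl identifier. Transcripts were measured in excitatory neuron nuclei (2 libraries) and inhibitory neuron nuclei (2 libraries). Both kinds of nuclei were sorted by fluorescence from whole brain without olfactory bulb of adult wild-type mice, and all libraries carry the same batch label. The sources used here do not give the markers of the sort, the exact age or whether animals were pooled. Nor do the labels tie replicates to different animals, and p-values therefore reflect the spread between these libraries, which may be technical. Values are TPM, transcript abundances per length that the authors scaled to about the same sum in every library, so levels of different genes can be set side by side. Depth cannot be read from TPM and is unknown, and a 0 is given only as listed at 0.

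Nicotinic receptors are ion channels that open when acetylcholine binds, and each is a ring of subunits around a cation pore. Alpha7 can form the ring alone. Alpha4 with beta2 forms the main heteromeric receptor of the forebrain, and alpha5, alpha6 and beta3 join such receptors as further subunits in particular neurons. Alpha3 with beta4 is the ganglionic type and is abundant in the medial habenula. In rodents, alpha6 and beta3 are known from midbrain dopamine neurons, alpha5 from deep cortical projection neurons, and alpha2 from dendrite-targeting interneurons of hippocampus and cortex.

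The group labels were checked against markers. Of the markers of excitatory neurons, 8 of 8 were called higher in excitatory nuclei, and 8 of 8 markers of inhibitory neurons were called higher in inhibitory nuclei. Among the inhibitory markers, Dlx5 passed the filter on low values through the inhibitory libraries alone, so its call partly follows from that filter. A call here is an adjusted p under 0.05 in limma (Benjamini-Hochberg over the 26055 genes that reached 1 TPM in 2 or more libraries). Each group also carried the other group's markers, with Gad1, the main GABA-synthesizing enzyme, at 45.0 and 38.1 TPM in excitatory libraries, against 226 and 207 TPM in inhibitory libraries. Slc17a6, a vesicular glutamate transporter of thalamus and brainstem, went against the inhibitory label, at 22.4 and 20.3 TPM in excitatory libraries, against 88.0 and 78.4 TPM in inhibitory libraries. Non-neuronal transcripts were present in both groups. The summed level of 8 oligodendrocyte markers ranged from 364 to 441 TPM in excitatory and from 277 to 385 TPM in inhibitory libraries, and that of 8 astrocyte markers from 188 to 231 TPM in excitatory and from 256 to 324 TPM in inhibitory libraries. Slc4a4, a bicarbonate cotransporter gene, made up much of the astrocyte sum, at 104 and 96.3 TPM in excitatory libraries, against 192 and 150 TPM in inhibitory libraries, while 6 of the 8 astrocyte markers had positive log2 fold changes (median 0.31, toward excitatory). The sum of 8 microglial markers ranged from 66.0 to 69.2 TPM in excitatory and from 77.2 to 89.9 TPM in inhibitory libraries. The part of these cells in the nicotinic values was not tested.

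The nicotinic family was expressed at nearly the same summed level in both groups, and 3 subunits made up most of it. The 9 genes summed to 98.7 and 103 TPM in excitatory libraries, against 105 and 105 TPM in inhibitory libraries. The log2 difference of the sums was -0.06 (exact two-sided permutation test, p = 0.333, the smallest that 2 against 2 libraries can give), and it turned to 0.015 when libraries were scaled by median ratios. Chrna7, Chrna4 and Chrnb2 together held 85.7% and 87.8% of the sum in excitatory libraries and 89.4% and 90.5% in inhibitory libraries. The other 6 subunits summed to 14.1 and 12.6 TPM in excitatory libraries, against 11.2 and 10.03 TPM in inhibitory libraries. Beta subunits summed to 26.9 and 26.5 TPM in excitatory libraries, against 32.7 and 35.2 TPM in inhibitory libraries, and nearly all of this was Chrnb2. In bulk RNA of this kind, fewer nuclei that express a gene and less RNA per nucleus cannot be told apart.

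**Figure D1:**
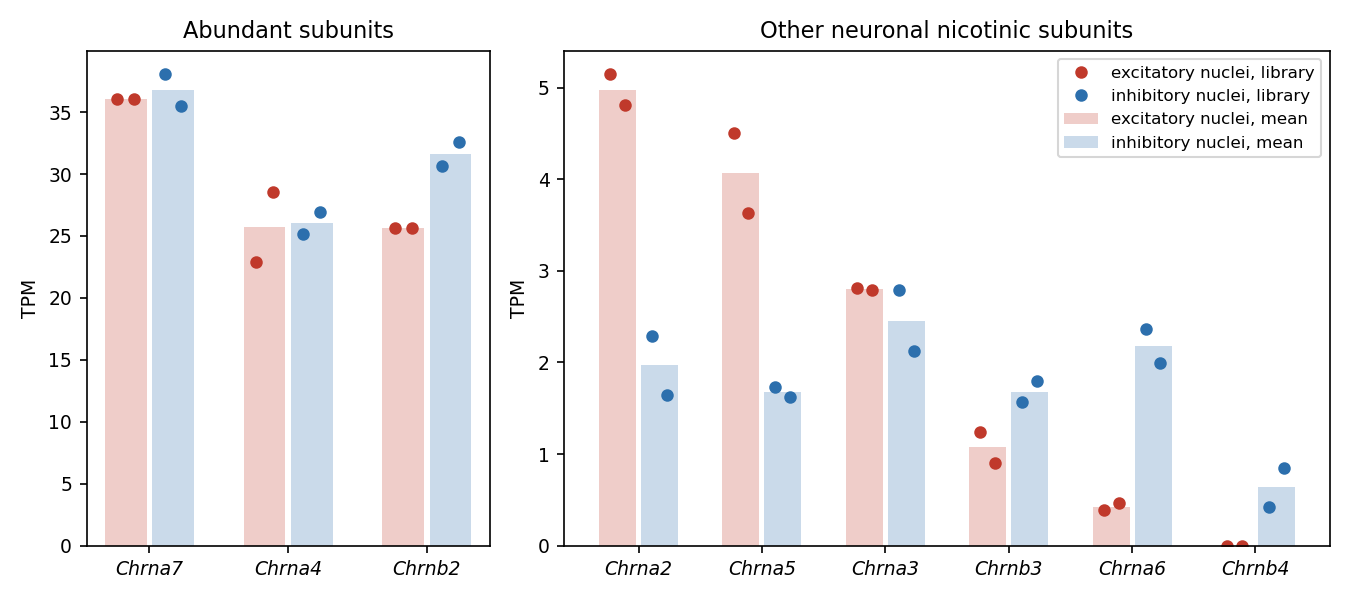
TPM (vertical axes, each starting at 0) of the 9 subunits in each library (points) with the group mean (bars), for excitatory and inhibitory nuclei. Chrna7, Chrna4 and Chrnb2 lie between 22.9 and 38.0 TPM in every library, while no other subunit exceeds 5.14 TPM.

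**Figure D2:**
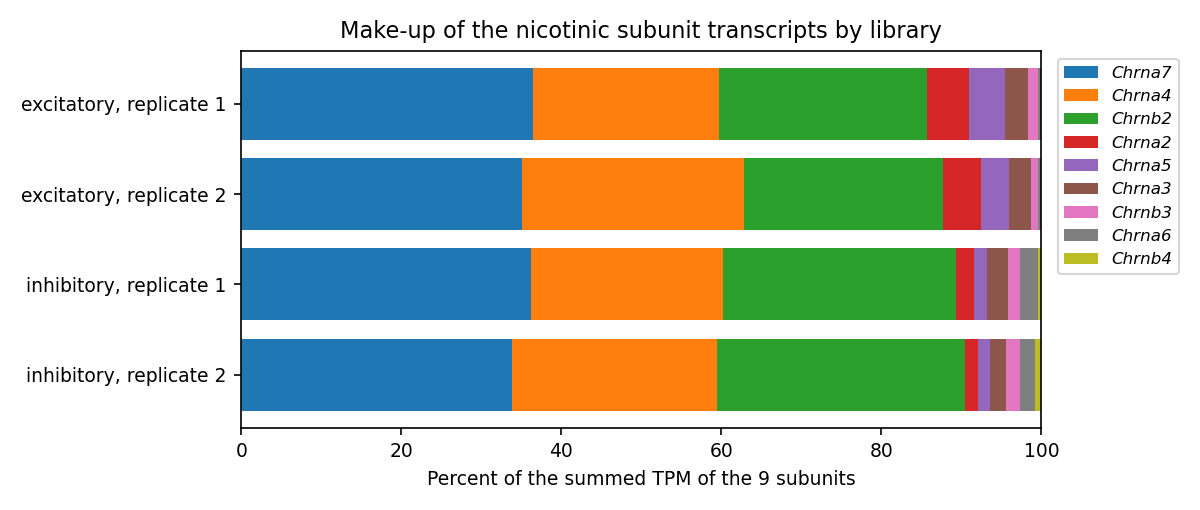
Percent of the summed TPM of the 9 subunits (horizontal axis) held by each subunit, with 1 bar per library. The 3 abundant subunits hold from 85.7% to 90.5%, and the remainder is mostly Chrna2 and Chrna5 in excitatory libraries but is spread over more subunits in inhibitory ones.

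Ordered by mean level, excitatory nuclei had Chrna7 first (36.0 TPM), then Chrna4 (25.7) and Chrnb2 (25.7), whose ranges overlapped, then Chrna2 (4.98), Chrna5 (4.07), Chrna3 (2.80), Chrnb3 (1.07), Chrna6 (0.425) and Chrnb4 (listed at 0). From Chrnb2 down, the ranges of neighbours in that order did not overlap. Inhibitory nuclei had Chrna7 (36.8 TPM), Chrnb2 (31.6) and Chrna4 (26.1), with separate ranges, and then a group of Chrna3 (2.46), Chrna6 (2.18), Chrna2 (1.97), Chrnb3 (1.68) and Chrna5 (1.68), in which each range overlapped the next. Chrnb4 (0.635 TPM) came last and apart.

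Chrna7, the subunit of the homomeric receptor, was the most abundant in both groups and its groups overlapped. Chrna7 stood at 36.0 and 36.1 TPM in excitatory libraries, against 38.0 and 35.5 TPM in inhibitory libraries, and its mean lay at the 76.7th percentile of the tested genes. Its log2 fold change was -0.03 ± 0.12 (SE), with a 95% interval from -0.32 to 0.26, and limma gave an adjusted p = 0.913. Here and below, log2 fold changes are excitatory minus inhibitory on the log2(TPM + 1) scale, which understates changes of low genes, ± is the standard error, and intervals are not adjusted for the number of genes. Chrna4, the agonist-binding partner of beta2, stood at 22.9 and 28.5 TPM in excitatory libraries, against 25.2 and 27.0 TPM in inhibitory libraries, so that the inhibitory values lay within the excitatory range. Its log2 fold change was -0.03 ± 0.16 (95% interval -0.42 to 0.36, limma adjusted p = 0.942). The signs of both differences turn with the scaling, to 0.05 for each under median ratios. Neither interval reaches a difference of 1 on the log2 scale.

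Chrnb2, the beta subunit of the main heteromeric receptor, stood at 25.7 and 25.6 TPM in excitatory libraries, against 30.7 and 32.6 TPM in inhibitory libraries. Both inhibitory libraries lay above both excitatory ones, 1.23-fold by the means, but limma did not call the difference (log2 fold change -0.29 ± 0.13, 95% interval -0.60 to 0.02, adjusted p = 0.206). Chrnb2 overlaps Adar, an RNA-editing enzyme gene, on the other strand, and 1365 of its 8380 annotated exon bases (16.3%) are also Adar exon. Adar stood at 138 and 160 TPM in excitatory libraries, against 160 and 181 TPM in inhibitory libraries, several times the level of Chrnb2. No source used here says whether the counting took strand into account, so the Chrnb2 value is uncertain. The ratio of Chrna4 to Chrnb2 was 0.892 and 1.11 in excitatory libraries, against 0.820 and 0.828 in inhibitory libraries. These ratios did not overlap between groups, with a log2 difference of 0.27 (exact two-sided permutation test, p = 0.333, again the smallest possible).

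The stretches just upstream of the starts of Chrna7 and Chrnb2 are shown because these are abundant subunits with start sites at or near the annotated gene end, for comparison with those of the scarce chromosome 9 subunits further on. They are the 250 bases before the RefSeq start, 5′ to 3′ along the gene, and capitals mark GGGCGG or its reverse complement CCGCCC, the core of the SP1 motif.
Chrna7 (GRCm38.p6, chr7:63212527-63212776, minus strand): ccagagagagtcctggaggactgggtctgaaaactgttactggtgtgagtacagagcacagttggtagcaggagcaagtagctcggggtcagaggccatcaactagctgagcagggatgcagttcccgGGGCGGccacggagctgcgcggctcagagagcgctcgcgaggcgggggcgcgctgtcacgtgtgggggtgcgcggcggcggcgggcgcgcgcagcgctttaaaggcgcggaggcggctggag
Chrnb2 (GRCm38.p6, chr3:89764633-89764882, minus strand): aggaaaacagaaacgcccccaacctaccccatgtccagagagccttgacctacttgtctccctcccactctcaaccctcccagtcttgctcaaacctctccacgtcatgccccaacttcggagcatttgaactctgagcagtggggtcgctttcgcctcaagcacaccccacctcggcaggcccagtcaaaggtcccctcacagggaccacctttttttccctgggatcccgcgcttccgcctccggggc
The Chrna7 window held 25 CpG dinucleotides and 1 SP1 core. The Chrnb2 window held 10 CpG dinucleotides and no SP1 core, against a median of 6 CpG dinucleotides over 32851 windows of the same length, of which 32.7% held an SP1 core on either strand. The EGR1 consensus GCGTGGGCG, searched on both strands because the study concerns EGR1, was found in 0.536% of all windows and in none of the 7 windows listed for 6 of the subunit genes. A match or its absence describes only these letters.

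**Figure D3:**
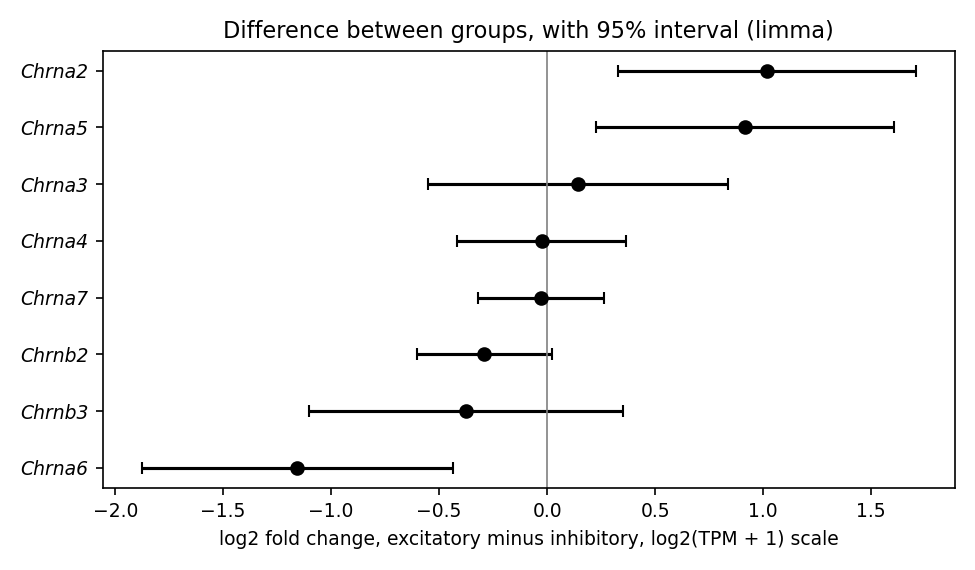
Log2 fold change, excitatory minus inhibitory, on the log2(TPM + 1) scale (horizontal axis) for the 8 tested subunits, with 95% intervals from limma that are not adjusted for the number of genes. Chrna2 and Chrna5 lie to the right (higher in excitatory) and Chrna6 to the left (higher in inhibitory), while Chrna4 and Chrna7 lie at 0, and none of the 8 has an adjusted p under 0.05.

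Among the scarcer subunits, Chrna2 and Chrna5 stood higher in excitatory nuclei and Chrna6 stood higher in inhibitory nuclei, none of them past the threshold. Chrna2 (chromosome 14, 66135039 to 66152948, plus strand, mm10) encodes an alpha subunit that binds acetylcholine and pairs with beta2 or beta4. It had 5.14 and 4.81 TPM in excitatory libraries, against 2.29 and 1.64 TPM in inhibitory libraries. Both excitatory libraries thus lay above both inhibitory ones, by 2.53-fold for the means (log2 fold change 1.02 ± 0.28, 95% interval 0.33 to 1.71, limma adjusted p = 0.0719). Beside it lies Ptk2b, a calcium-activated tyrosine kinase gene on the other strand, whose end is 308 bases from the end of Chrna2. Ptk2b was called higher in excitatory nuclei, at 147 and 160 TPM in excitatory libraries, against 80.3 and 73.9 TPM in inhibitory libraries (log2 fold change 0.98 ± 0.11, limma adjusted p = 0.00483). The part of this neighbour in the Chrna2 value was not tested.

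Chrna5, Chrna3 and Chrnb4 form a cluster on chromosome 9. Chrna5 (54980880 to 55007779, plus strand) encodes an accessory subunit that does not bind acetylcholine at the usual site. It had 4.51 and 3.63 TPM in excitatory libraries, against 1.73 and 1.62 TPM in inhibitory libraries, with no overlap between the groups. The means differed 2.43-fold, with a log2 fold change of 0.92 ± 0.28 (95% interval 0.23 to 1.61, limma adjusted p = 0.0944). Chrna3 (55010111 to 55026562, minus strand) encodes the alpha subunit of ganglionic receptors. It had 2.81 and 2.79 TPM in excitatory libraries, against 2.79 and 2.12 TPM in inhibitory libraries, and the groups overlapped. Its log2 fold change was 0.14 ± 0.28 (95% interval -0.55 to 0.84, limma adjusted p = 0.801), and from 0.004 to 0.28 with 1 library left out.

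Chrnb4 (55028154 to 55048779, minus strand), the usual beta partner of alpha3, was listed at 0 in both excitatory libraries and had 0.422 and 0.848 TPM in inhibitory libraries. It stayed under 1 TPM throughout and did not enter the test, and no fold is given. Tested without the filter on low values, it was not called (limma adjusted p = 0.13). Of 10 widely expressed genes that were checked, none was listed at 0 in any library. The ratio of Chrna5 to Chrna3, chosen after the values were seen and given without a test, was 1.60 and 1.30 in excitatory libraries, against 0.620 and 0.764 in inhibitory libraries. Chrna5 was therefore the more abundant of these neighbours in excitatory nuclei and the less abundant in inhibitory nuclei. The gene models leave 2331 bases between Chrna5 and Chrna3 in GENCODE, while in RefSeq they overlap by 1304 bases on opposite strands, so reads near their ends are uncertain.

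The upstream windows of this cluster are shown for Chrna5, whose levels were apart between the groups, and for Chrna3, whose levels overlapped, with the same marking as before.
Chrna5 (GRCm38.p6, chr9:54980630-54980879, plus strand): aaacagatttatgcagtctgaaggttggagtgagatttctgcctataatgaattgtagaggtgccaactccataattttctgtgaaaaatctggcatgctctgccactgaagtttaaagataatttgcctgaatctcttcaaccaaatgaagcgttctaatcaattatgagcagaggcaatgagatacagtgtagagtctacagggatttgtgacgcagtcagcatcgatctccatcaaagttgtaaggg
Chrna3 (GRCm38.p6, chr9:55026563-55026812, minus strand): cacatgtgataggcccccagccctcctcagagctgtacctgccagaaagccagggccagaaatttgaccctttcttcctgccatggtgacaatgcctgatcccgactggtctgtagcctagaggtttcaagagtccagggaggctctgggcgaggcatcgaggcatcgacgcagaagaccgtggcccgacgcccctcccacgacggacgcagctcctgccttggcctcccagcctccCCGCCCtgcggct
The Chrna5 window held 3 CpG dinucleotides, 40.0% GC and no SP1 core, and the Chrna3 window held 13 CpG dinucleotides, 63.2% GC and 1 SP1 core. A further RefSeq start of Chrna5 lies 608 bases into the gene, and the 250 bases before it held 17 CpG dinucleotides and 4 SP1 cores. Which start was used in either group was not analysed here.

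**Figure D4:**
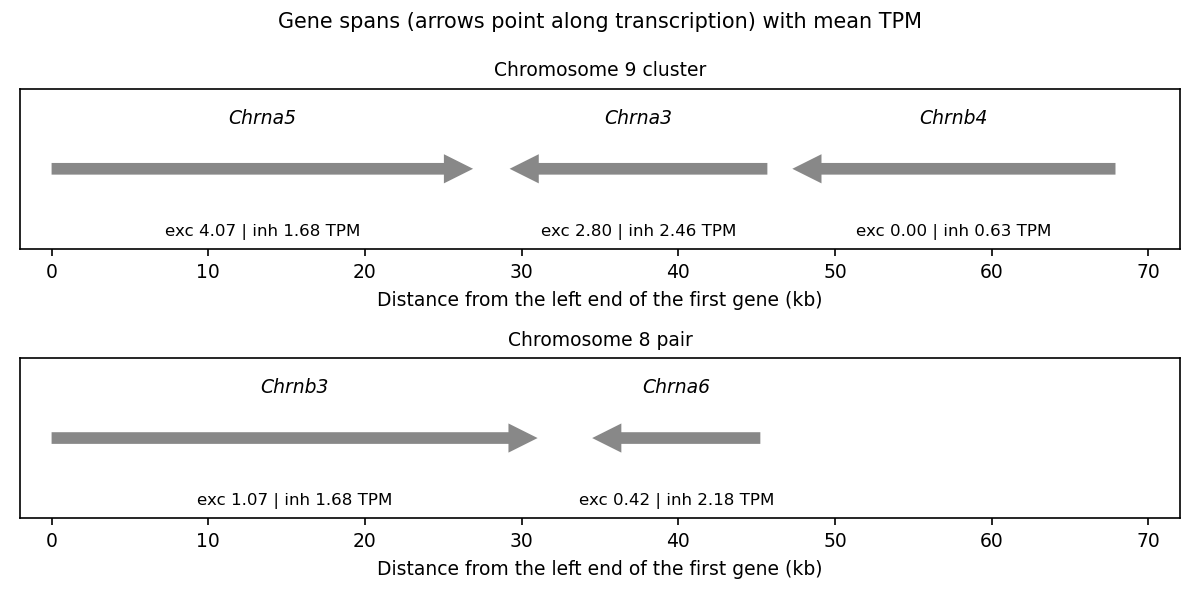
Gene spans on chromosome 9 (Chrna5, Chrna3, Chrnb4) and chromosome 8 (Chrnb3, Chrna6), as distance in kb from the left end of the first gene, with arrows along transcription and mean TPM in excitatory (exc) and inhibitory (inh) nuclei. Chrna5 has 4.07 TPM in excitatory and 1.68 TPM in inhibitory nuclei, and Chrna6 has 0.42 and 2.18 TPM.

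Chrna6 and Chrnb3 lie tail to tail on chromosome 8, 3481 bases apart. Chrna6 (27403212 to 27413944, minus strand), the alpha subunit known from dopamine neurons, had 0.384 and 0.466 TPM in excitatory libraries, against 2.37 and 1.99 TPM in inhibitory libraries. The groups lay apart, with a mean 5.13-fold higher in inhibitory nuclei and a log2 fold change of -1.16 ± 0.30 (95% interval -1.88 to -0.44, limma adjusted p = 0.0581). Chrna6 reached the filter through inhibitory libraries alone, and its log2 fold change was -2.12 with a pseudocount of 0.1 (adjusted p = 0.0784). Chrnb3 (27368711 to 27399730, plus strand), a structural subunit that often joins alpha6, had 1.24 and 0.903 TPM in excitatory libraries, against 1.57 and 1.80 TPM in inhibitory libraries. Its log2 fold change was -0.38 ± 0.30 (95% interval -1.10 to 0.35, limma adjusted p = 0.476), and -0.62 with a pseudocount of 0.1. The ratio of Chrna6 to Chrnb3, chosen after the values were seen and given without a test, was 0.310 and 0.516 in excitatory libraries, against 1.51 and 1.11 in inhibitory libraries.

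Over the family, limma called 0 of the 8 tested subunits, against 12.0% of all tested genes, or 3139 of 26055 (5.43% called toward excitatory and 6.62% toward inhibitory nuclei). At an unadjusted p under 0.05 there were 3 of 8 (Chrna2, Chrna5 and Chrna6), against 27.8% of all tested genes. Groups did not overlap for 5 of 8 subunits, against 56.2% of all tested genes, which is near the background. Of these, 2 of 8 stood higher in excitatory libraries, against 23.0% of all tested genes, and 3 of 8 stood higher in inhibitory libraries, against 33.3%. The median log2 fold change of the tested subunits was -0.03, against -0.07 over all tested genes, and the median of its absolute value was 0.33, against 0.30. Of tested genes averaging under 5 TPM, 8.79% were called, against 13.4% of those at 5 TPM or more. Without a trend of variance with level in the model, Chrna2 (adjusted p = 0.0439), Chrna5 (0.0463) and Chrna6 (0.0271) were called, and none was in the 5 other settings that tested them with all libraries. With 1 library left out no gene of the table was called, so those fits could not show a call, and a filter at 5 TPM removed these 3 genes.

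The genes most like each subunit were sought among 130 tested genes of the lists, by the distance between log2(TPM + 1) profiles centred over the 4 libraries. The lists hold genes chosen as nicotinic modulators, so a modulator among the nearest partly follows from that choice. This is a description of 4 values per gene. Nearest to Chrna6 was Lypd6 (distance 0.023), a modulator of nicotinic receptors, and nearest to Chrnb3 was Lynx1 (0.05), another such modulator. These distances depend on the log2(TPM + 1) scale, which understates changes of low genes. By the means, inhibitory over excitatory, Chrna6 differed 5.13-fold and Lypd6 3.08-fold, while Chrnb3 differed 1.57-fold and Lynx1 1.32-fold. Gpr151, a habenular receptor gene, was nearest to Chrna7 (0.071), and Nptn, a cell adhesion gene, to Chrna3 (0.112). Nearest to Chrna5 was Hs3st4 (0.133), a heparan sulfate enzyme gene of layer 6 neurons, and nearest to Chrna2 was Lamp5 (0.146), a membrane protein gene of cortical neurons. Chrnb2 had Lynx1 (0.172) and Chrna4 had Tek (0.195), an endothelial receptor gene, as nearest genes.

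Of 7 subunits of muscle and sensory receptors, 3 were tested and 0 called by limma, against 12.0% of all tested genes. At an unadjusted p under 0.05 there was 1 of 3, against 27.8% of all tested genes. The gene at p under 0.05 was Chrnb1, the muscle beta subunit, at 5.87 and 7.18 TPM in excitatory libraries, against 10.3 and 12.3 TPM in inhibitory libraries (log2 fold change -0.71 ± 0.23, adjusted p = 0.106). Chrnb1 thus stood above each of the 6 scarcer neuronal subunits in every library. Chrna9, a subunit of cochlear hair cells, was listed at 0 in all 4 libraries.

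Of the 9 genes that help to build or move nicotinic receptors, 9 were tested and 0 called by limma, against 12.0% of all tested genes. At an unadjusted p under 0.05 there were 2 of 9, against 27.8% of all tested genes, and 3 were called toward inhibitory when replicate number was a term. Tmem35a, which encodes the assembly chaperone NACHO, stood at 19.6 and 17.3 TPM in excitatory libraries, against 29.7 and 25.1 TPM in inhibitory libraries, with no overlap (log2 fold change -0.55 ± 0.16, adjusted p = 0.0845). Ric3, a chaperone of alpha7, stood at 71.6 and 59.9 TPM in excitatory libraries, against 81.7 and 71.4 TPM in inhibitory libraries, and the groups overlapped. Canx, the chaperone calnexin, had a log2 fold change of -0.44 (adjusted p = 0.121), and Ywhah, a 14-3-3 protein, one of 0.27 (adjusted p = 0.183).

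The Ly6 family holds small proteins related to snake toxins, several of which bind nicotinic receptors. Of 6 tested genes on this list, 1 was called toward each group, against 12.0% of all tested genes called in either direction. At an unadjusted p under 0.05 there were 6 of 6, against 27.8% of all tested genes. Of these, 3 had positive and 3 had negative log2 fold changes. Ly6e was higher in excitatory nuclei, at 101 and 117 TPM in excitatory libraries, against 44.2 and 43.0 TPM in inhibitory libraries (log2 fold change 1.30 ± 0.12, limma adjusted p = 0.00319). Lypd6 was higher in inhibitory nuclei, at 1.38 and 1.54 TPM in excitatory libraries, against 4.78 and 4.24 TPM in inhibitory libraries (log2 fold change -1.16 ± 0.28, limma adjusted p = 0.0483). That call held in 1 other setting, without the variance trend. It was lost in 5 settings with all libraries, with adjusted p from 0.0523 to 0.107, and with any 1 library left out, and a filter at 5 TPM removed the gene. Lypd6b, its paralog, had 5.18 and 5.73 TPM in excitatory libraries, against 13.1 and 9.43 TPM in inhibitory libraries, and was not called (adjusted p = 0.0696). Lynx1, which restrains nicotinic receptors, had 78.7 and 68.6 TPM in excitatory libraries, against 94.5 and 99.5 TPM in inhibitory libraries (adjusted p = 0.0785).

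Of the 7 genes of acetylcholine synthesis, transport and breakdown, 5 were called toward inhibitory nuclei and 2 missed the threshold. Over all tested genes, 6.62% were called toward inhibitory nuclei and 12.0% in either direction. Prima1, which anchors acetylcholinesterase in the membrane, had 2.201 and 0.713 TPM in excitatory libraries, against 13.3 and 10.2 TPM in inhibitory libraries (log2 fold change -2.44 ± 0.37, limma adjusted p = 0.0135). Slc18a3, the vesicular acetylcholine transporter, had 0.131 and 0.122 TPM in excitatory libraries, against 2.33 and 2.39 TPM in inhibitory libraries (adjusted p = 0.0237 by limma). Ache, the esterase itself, had 53.6 and 74.2 TPM in excitatory libraries, against 117 and 114 TPM in inhibitory libraries (log2 fold change -0.86 ± 0.16, limma adjusted p = 0.0256). Slc5a7, the choline transporter, and Chat, the synthesizing enzyme, had log2 fold changes of -2.31 and -2.06. No excitatory library reached 1 TPM for Slc18a3, Slc5a7 or Chat, so these 3 passed the filter through inhibitory libraries alone. Without the filter these 3 stayed called, while Prima1 (limma adjusted p = 0.0582) and Ache (0.0804) were lost. A filter at 5 TPM removed Slc18a3 and Chat, and 3 genes were called with it.

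**Figure D5:**
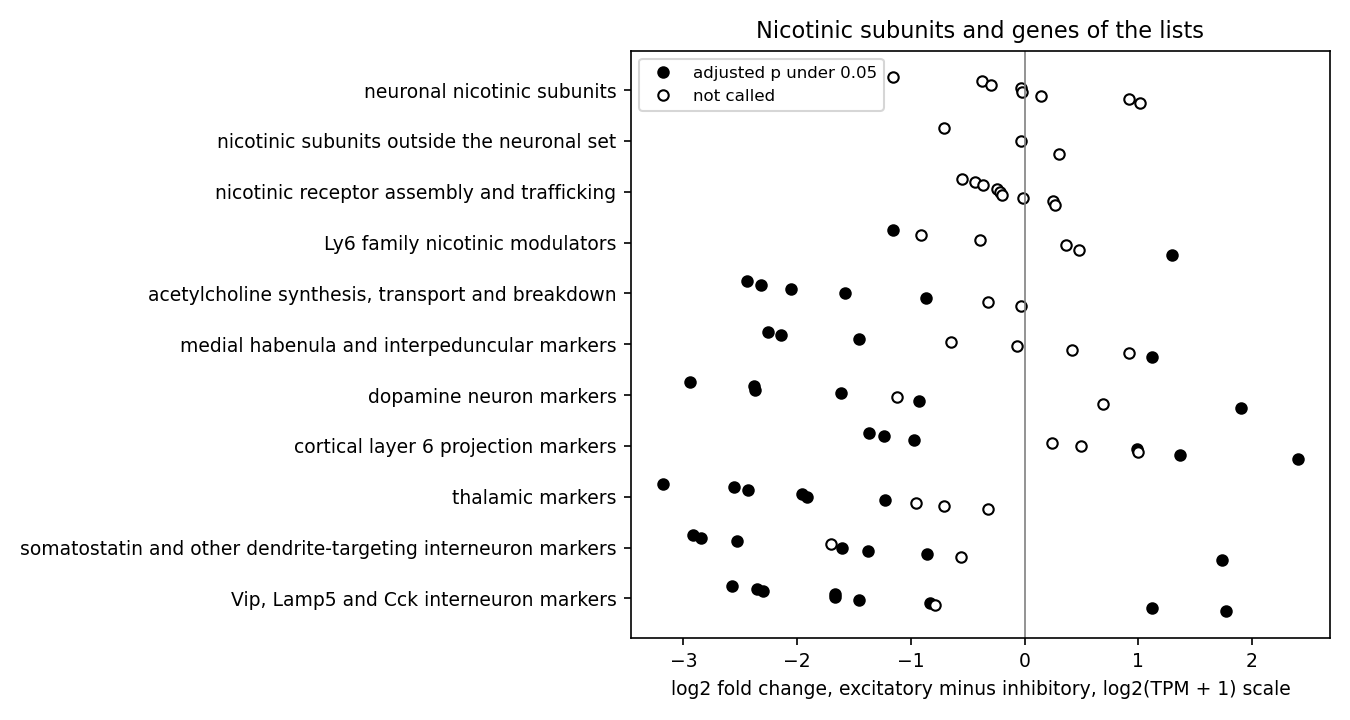
Log2 fold change, excitatory minus inhibitory, on the log2(TPM + 1) scale (horizontal axis) of tested genes, with 1 row per list and filled points for adjusted p under 0.05 in limma. The nicotinic subunits and the assembly genes have no filled point, while 5 of the 7 acetylcholine genes are filled on the inhibitory side.

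Neuron types known to use particular subunits were represented by marker lists, read here against the 12.0% of all tested genes called. Whether a marker, Drd2 and Tac1 among them, is confined to its named type was not checked here. Of 8 tested dopamine neuron markers, the type known for Chrna6 and Chrnb3, 5 were higher in inhibitory (2 without the filter) and 1 in excitatory nuclei. Drd2, the dopamine D2 receptor, had the smallest p, at 4.15 and 2.47 TPM in excitatory libraries, against 30.4 and 32.7 TPM in inhibitory libraries (log2 fold change -2.94, limma adjusted p = 0.00307). Slc6a3, the dopamine transporter, had 0.364 and 0.320 TPM in excitatory libraries, against 6.52 and 5.51 TPM in inhibitory libraries (limma adjusted p = 0.00655). It passed the filter through inhibitory libraries alone. Nr4a2, which cortical neurons also express, was the exception, at 20.5 and 21.6 TPM in excitatory libraries, against 5.67 and 4.21 TPM in inhibitory libraries. Of 9 tested layer 6 markers, the neurons known for Chrna5, 3 were higher in each group and 3 were not called. Without the filter, 2 were called toward inhibitory nuclei. Ccn2 had 24.8 and 21.5 TPM in excitatory libraries, against 3.19 and 3.93 TPM in inhibitory libraries, while the forkhead gene Foxp2, also a striatal gene, had 34.5 and 34.8 TPM in excitatory libraries, against 91.7 and 90.7 TPM in inhibitory libraries.

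Of 9 tested markers of somatostatin and other dendrite-targeting interneurons, the type known for Chrna2, 6 were higher in inhibitory (5 without the filter) and 1 in excitatory nuclei. Sst, the somatostatin gene, had 17.2 and 14.4 TPM in excitatory libraries, against 131 and 108 TPM in inhibitory libraries (limma adjusted p = 0.00154). Tac1, a tachykinin precursor, had 15.2 and 10.4 TPM in excitatory libraries, against 111 and 92.6 TPM in inhibitory libraries. The call toward excitatory was Rxfp1, a relaxin receptor, at 37.4 and 45.5 TPM in excitatory libraries, against 12.2 and 11.2 TPM in inhibitory libraries (log2 fold change 1.74, limma adjusted p = 0.00364). Chrna2 itself stood on the excitatory side, as given above. Of 10 tested markers of Vip, Lamp5 and Cck interneurons, 7 were higher in inhibitory (5 without the filter) and 2 in excitatory nuclei. Among the 7, Htr3a passed the filter through inhibitory libraries alone. Adarb2, an RNA-editing family gene, had 44.2 and 39.1 TPM in excitatory libraries, against 206 and 227 TPM in inhibitory libraries. The calls toward excitatory were Cck and Lamp5, for which the list is named. Cck, the cholecystokinin gene, had 374 and 345 TPM in excitatory libraries, against 120 and 90.8 TPM in inhibitory libraries, and Lamp5 had 66.5 and 69.3 TPM in excitatory libraries, against 33.8 and 27.7 TPM in inhibitory libraries.

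Thalamic markers, of a region rich in alpha4 and beta2 receptors, were called toward inhibitory nuclei in 6 of 9 cases, with a median log2 fold change of -1.91. Prkcd, a protein kinase C gene of thalamic relay neurons, had 12.7 and 12.2 TPM in excitatory libraries, against 57.3 and 89.6 TPM in inhibitory libraries. Beside these, the intervals given above were -0.42 to 0.36 for Chrna4, whose groups overlapped, and -0.60 to 0.02 for Chrnb2, which stood higher in both inhibitory libraries. Of 8 tested medial habenula and interpeduncular markers, the site known for Chrna3 and Chrnb4, 3 were higher in inhibitory and 1 in excitatory nuclei. Kctd8, an auxiliary GABA-B receptor gene, had 10.8 and 9.05 TPM in excitatory libraries, against 30.3 and 27.6 TPM in inhibitory libraries, and Nwd2 had 35.3 and 39.5 TPM in excitatory libraries, against 17.3 and 16.0 TPM in inhibitory libraries. The other calls toward inhibitory nuclei were Tac2 (log2 fold change -2.25, limma adjusted p = 0.00875) and Irx2 (-2.15, limma adjusted p = 0.00953). Pou4f1, a defining habenular factor, had 0.141 and 0.0714 TPM in excitatory libraries, against 0.678 and 2.296 TPM in inhibitory libraries, and was under the filter. It lay higher in both inhibitory libraries, as did Chrnb4. Lrrc55 and Gng8 of the same list lay higher in both excitatory libraries and were not called. The groups overlapped for Gpr151, also of this list, and for Chrna3. Of the 8 tested genes of this list, 3 had positive and 5 had negative log2 fold changes. Among the 3, Gng8 passed the filter through excitatory libraries alone. Pou4f1 and Irx3, both higher in both inhibitory libraries, were under the filter, so this tally partly follows from it. The part of these neuron types in the subunit values was not tested.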

How the data were processed

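Per the labels' protocols, libraries from sorted excitatory (2) and inhibitory (2) nuclei were directional and rRNA-depleted. The authors deposited TPM values for 55487 genes, 1 column per library, which sum to between 999833 and 999891. The submitters' processing notes name StringTie 2.2.1, Bowtie2 2.3.5, HISAT2 2.2.1, fastp 0.23.4 and mm10. No source used here gives the annotation or the strand setting.

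The 26055 genes that reached 1 TPM in 2 or more libraries were compared as log2(TPM + 1) by limma 3.58.1 in R 4.3.3, allowing a variance trend (prior 4.04, residual 2 degrees of freedom). Two-sided p-values were adjusted by Benjamini-Hochberg over all tested genes, and the script was tested on simulated data. Single ratios and sums were compared by an exact permutation test over libraries. Within groups, 89 (excitatory) and 93 (inhibitory) of the tested values were identical, so no column copied another. Positions came from GENCODE M21, which matched all 9 subunits, and upstream sequences from RefSeq (GRCm38.p6), which had 6 of them. Named genes were all subunits, the 3 smallest p-values and up to 5 calls of each list, the nearest profiles, genomic neighbours and label markers. Not every gene of the rule is printed. Chrna9, Ric3, Prkcd, Htr3a, Lrrc55, Gng8, Irx3 and Pou4f1 were named outside the rule. Subunits and lists were chosen with earlier results of these data known. Alternatives were another pseudocount, filter, scaling or variance prior, replicate number as a term, and each library left out. Plots used Python 3.11.15 and matplotlib 3.10.9.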

Additional observations from a re-analysis of the deposited data

How the results depend on the processing

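Of 51 subunit fold changes in other settings with all libraries, 44 kept their direction and side of the threshold. Those of Chrna2 (1.02), Chrna5 (0.92) and Chrna6 (-1.16) passed it without the variance trend, which gave 2 subunits called toward excitatory and 1 toward inhibitory. The sign turned for Chrna4 (0.047 with median ratio scaling, 0.027 with quantile normalization) and Chrna7 (0.046 and 0.0046), and for the summed level (0.015 with median ratio scaling). With 1 library left out, the fold change ranged from -0.18 to 0.13 for Chrna4, where it was positive without excitatory replicate 1 (0.13) or inhibitory replicate 2 (0.022), and from -0.076 to 0.020 for Chrna7, positive without inhibitory replicate 1. The causes were not tested.

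Over all genes, 666 were called toward excitatory and 740 toward inhibitory without the filter, against 1414 and 1725. With any 1 of the 4 libraries left out, limma had 1 residual degree of freedom, the lone library was assumed to vary like the others, and 0 genes were called (0 to 0 in each direction, smallest adjusted p from 0.0545 to 0.0664, with from 5311 to 5812 genes at an unadjusted p under 0.05), so each call named above was lost. Replicate number as a block gave 1946 and 2382 calls, and 0 subunits, with Chrna6 at an adjusted p = 0.0651. The labels tie same-numbered libraries by nothing but the number. Their deviations from the group means had a correlation of 0.096, which cannot settle whether they were prepared together. The oligodendrocyte sum, for 1, was higher in replicate 1 of both groups, while the endothelial and mural sum was not. Of 140 counts of list calls in settings with no library left out, 131 were within 1.5 times the main count. Many of these set 0 against a main count of 0, as for the assembly genes toward excitatory nuclei, and show nothing about how stable calls are. Depth is unknown, so counting error of the subunits under 5 TPM could not be set.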
